A study of Mus musculus with 95 samples.

Results

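The 9 genes described here make the immunoproteasome and load peptides onto MHC class I: Psmb8, Psmb9, Psmb10, Psme1, Psme2, Tap1, Tap2, Tapbp and Erap1. They were chosen by symbol, with earlier results of these data known, and matched to 9 of the 55471 features of a count table of mouse nucleus accumbens RNA. All mice carried Tg(Aldh1l1-EGFP/Rpl10a)JD130Htz on a B6;FVB background, a transgene in which the promoter of the astrocyte gene Aldh1l1 drives a tagged ribosomal protein. Tagged ribosomes were purified from a punch of the nucleus accumbens, and the RNA bound to them (IP) stands for RNA under translation in astrocytes, while an aliquot taken beforehand (input) is RNA of the whole punch. Dependent mice went through 5 rounds of chronic intermittent ethanol (CIE) within the CIE-2BC protocol, in which 2BC is voluntary drinking by bottle choice. Non-dependent mice had 2BC alone, and naive mice had no ethanol. Ages are not in the labels, and the line is a single transgenic line, so all groups share the transgene.

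There were 95 libraries from 49 mice, and both fractions exist for 46 of them. Treatments were compared in the 4 batches I, J, K and L (a label of each library), with 16 dependent, 13 non-dependent and 15 naive IP libraries and 16, 15 and 16 input libraries, of both sexes. Naive mice are missing from batch I and non-dependent mice from batch L. A single dependent female makes up batch C and another batch G, and these entered no treatment comparison. Totals ran from 14314236 to 27146790 counts per IP library and from 12803108 to 23948193 per input library. In these batches the 10 astrocyte markers summed to 19382 to 26583 CPM (counts scaled to the same library total) in IP and to 2242 to 3809 CPM in input, and all 10 were higher in IP. The 10 neuron markers were all lower in IP, where they still summed to 2664 to 4847 CPM.

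Proteasomes cut proteins into peptides, and the 3 catalytic beta subunits of the standard core are encoded by Psmb5, Psmb6 and Psmb7. Under interferon signalling cells make Psmb8, Psmb9 and Psmb10, which take the places of Psmb5, Psmb6 and Psmb7 in newly built cores and change which peptides are cut. Psme1 and Psme2 form the PA28 cap that opens the core. Tap1 and Tap2 pump peptides into the endoplasmic reticulum, Erap1 trims them there, and Tapbp (tapasin) bridges the transporter and the class I molecule during loading. In healthy brain tissue this machinery is known to be low compared with lymphoid organs.

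Of the 9 genes, 5 lie on chromosome 17 in the mouse major histocompatibility complex (GRCm38). Psmb9 (chr17:34181987-34187764, minus strand), Tap1 (chr17:34187553-34197225, plus strand), Psmb8 (chr17:34197721-34201454, plus strand) and Tap2 (chr17:34203527-34216321, plus strand) follow each other directly, and Tapbp (chr17:33915899-33929292, plus strand) lies apart from them. Psme1 (chr14:55578123-55581529) and Psme2 (chr14:55587441-55591113) are neighbours on chromosome 14, Psmb10 lies at chr8:105935735-105938444 and Erap1 at chr13:74639568-74693201. Psmb9 and Tap1 share 212 exonic bases on opposite strands, Erap1 shares 834 with Cast on the opposite strand, and Tapbp shares 149 with Zbtb22 on its own strand. Of the standard subunit genes, Psmb7 shares 405 exonic bases with Nek6 on the opposite strand. Reads there could not be assigned with certainty, because the use of strand in counting is not given in the sources used here. Psme2 has a near copy, Psme2b, which took 6.97% of the counts of the pair.

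RefSeq promoter windows (GRCm38.p6, 250 bases before to 50 after the annotated start) were found for 8 of the 9 genes. Psmb9 and Tap1 start back to back, and their windows share 275 bases. The Tap1 window is printed because it holds this shared region of 2 genes with joint changes, and those of Psmb8, Psme1 and Erap1 because they hold a searched motif, which is in capitals:
Tap1 (and, on the other strand, most of the Psmb9 window), chr17:34187306-34187605, plus strand: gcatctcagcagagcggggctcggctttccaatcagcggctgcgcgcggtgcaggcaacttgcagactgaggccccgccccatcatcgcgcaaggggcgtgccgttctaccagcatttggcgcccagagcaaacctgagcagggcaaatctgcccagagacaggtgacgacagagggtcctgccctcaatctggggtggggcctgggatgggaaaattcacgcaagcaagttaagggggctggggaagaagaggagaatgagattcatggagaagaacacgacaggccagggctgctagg
Psmb8, chr17:34197945-34198244, plus strand: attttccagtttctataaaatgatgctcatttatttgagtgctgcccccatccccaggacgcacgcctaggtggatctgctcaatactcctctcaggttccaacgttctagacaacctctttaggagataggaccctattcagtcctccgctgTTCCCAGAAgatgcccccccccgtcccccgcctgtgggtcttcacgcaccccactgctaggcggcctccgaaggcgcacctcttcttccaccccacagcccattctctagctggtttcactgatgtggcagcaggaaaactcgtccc
Psme1, chr14:55578244-55578543, plus strand: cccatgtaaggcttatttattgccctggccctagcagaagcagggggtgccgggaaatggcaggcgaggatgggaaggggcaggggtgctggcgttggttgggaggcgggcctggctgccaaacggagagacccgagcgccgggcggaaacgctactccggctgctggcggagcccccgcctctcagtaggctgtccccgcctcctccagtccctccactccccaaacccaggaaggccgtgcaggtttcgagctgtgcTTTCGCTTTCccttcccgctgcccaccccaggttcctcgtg
Erap1, chr13:74639603-74639902, plus strand: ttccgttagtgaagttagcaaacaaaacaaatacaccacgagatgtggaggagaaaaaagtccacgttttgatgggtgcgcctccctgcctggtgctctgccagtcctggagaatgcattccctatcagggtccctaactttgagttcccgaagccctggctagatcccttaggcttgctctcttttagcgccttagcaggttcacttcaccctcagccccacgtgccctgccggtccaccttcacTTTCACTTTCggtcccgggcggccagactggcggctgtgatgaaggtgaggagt

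Both strands were searched for 3 motifs: GAAANNGAAA (bound by interferon regulatory factors), TTCNNNGAA (bound by STAT proteins) and GGGNNTTTCC (bound by NF-kB). The STAT-type letters stood in the Psmb8 window, beginning 97 bases before the start, and in 8.3% of 32851 mouse promoter windows of the same length. The interferon-regulatory-factor letters stood on the minus strand of the Psme1 window, beginning 9 bases after the start, and of the Erap1 window, beginning 4 bases before it, and in 3.44% of all windows. No window of the 8 genes held the NF-kB-type letters, which 1.63% of all windows hold. These are matches of letters and not measured binding sites.

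The catalytic subunits Psmb8 and Psmb9 were the members with the largest differences between dependent and non-dependent mice in astrocyte IP. Psmb8, which replaces Psmb5 and carries chymotrypsin-like activity, ranged from 7.23 to 168 CPM (median 19.9) in the 16 dependent IP libraries. In the 13 non-dependent libraries it ranged from 4.16 to 12.03 CPM (median 5.77), and in the 15 naive ones from 2.52 to 15.4 CPM (median 5.04). Of the dependent libraries, 11 were above every non-dependent one, and the ranges overlapped. Psmb9, which replaces Psmb6, ranged from 5.71 to 151 CPM (median 18.7) in dependent, 2.51 to 12.5 CPM (median 4.93) in non-dependent and 2.09 to 12.8 CPM (median 4.55) in naive mice. For Psmb9, 10 dependent libraries lay above every non-dependent one, with the ranges overlapping. Psmb10, which replaces Psmb7, was far more abundant in every group, with a median of 93.9 CPM in dependent (60.0 to 212), 71.1 CPM in non-dependent (48.8 to 96.8) and 63.8 CPM in naive mice (48.0 to 95.2).

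In edgeR's quasi-likelihood test (Benjamini-Hochberg adjustment over all 20580 genes tested, called at an adjusted p at or under 0.05), 9 of 9 members were higher in dependent than in non-dependent IP, where 1.08% of all genes were called higher and 1.53% in either direction. The median log2 fold change was 0.76 over the members and 0.00 over all genes tested. Psmb8 was 7.01-fold higher (log2 2.81 ± 0.44 SE, adjusted p = 0.000345) and Psmb9 7.43-fold higher (log2 2.89 ± 0.51 SE, adjusted p = 0.00131). Psmb10 rose by log2 0.78 ± 0.16 SE (adjusted p = 0.00309). The count depended on the batches fitted. It was 0 without batch I and 0 in batches J and K alone, fits in which few genes of any kind were called. It was 6 without batch J, and 3 with no batch term over all 6 batches (Psmb8, Psmb9 and Tap1). Fold changes stayed positive for all 9 members under every alternative run, and without batch I Psmb8 was higher by log2 1.89 (adjusted p = 0.0868) and Psmb9 by 1.62 (adjusted p = 0.237).

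**Figure D1:**
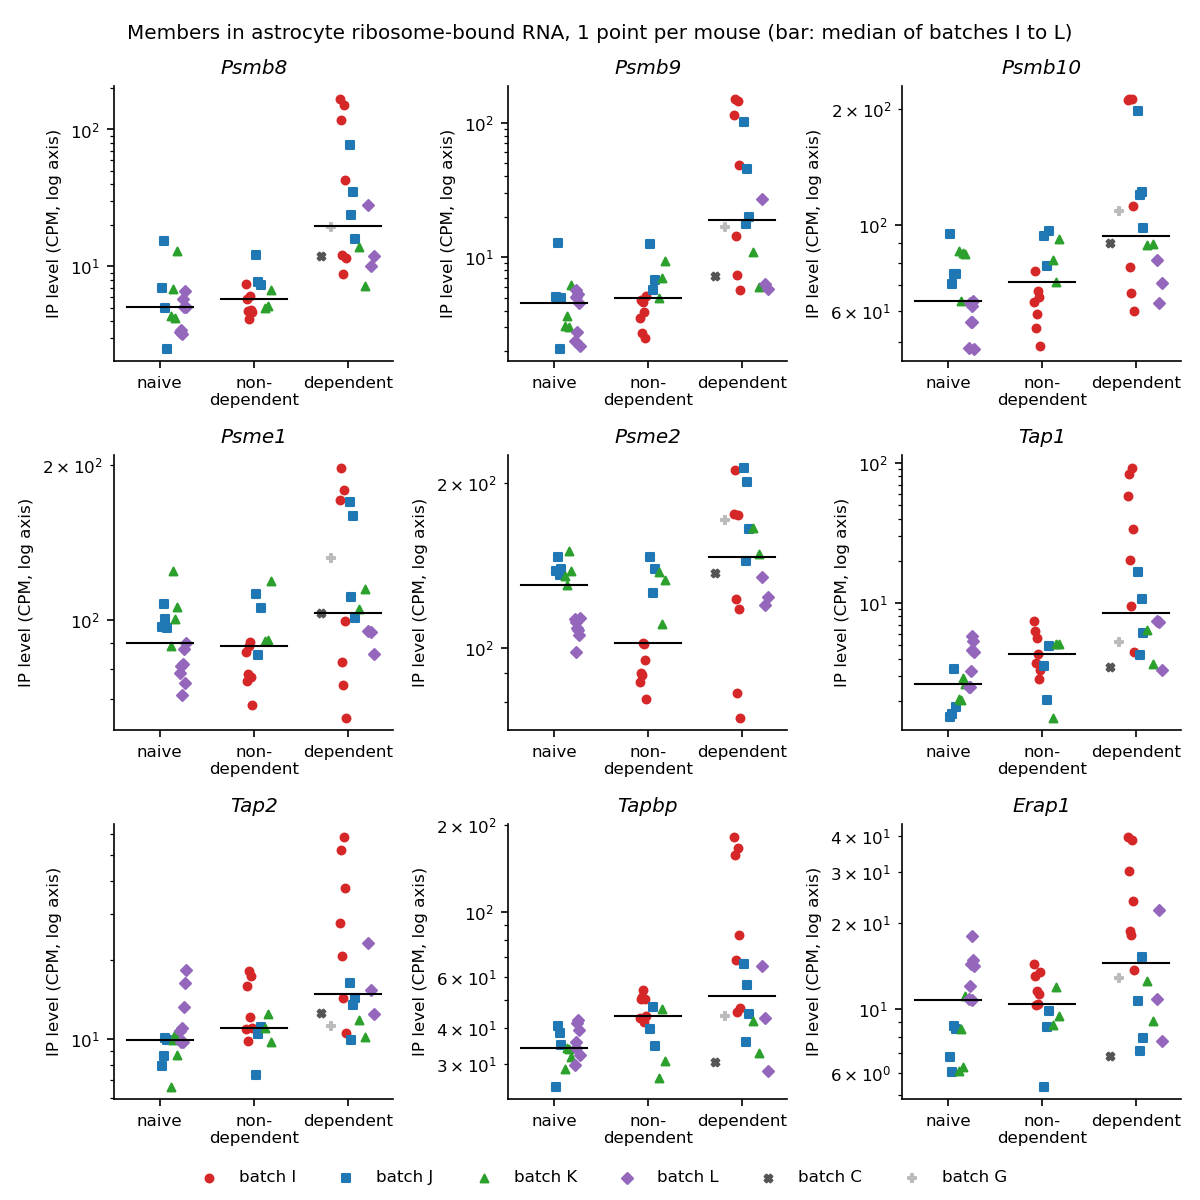
IP level of each member in CPM on a log axis for naive, non-dependent and dependent mice, 1 point per mouse, with colour and shape for the batch and a bar for the median of batches I to L. In dependent mice Psmb8 runs from 7.23 to 168 CPM, and mice I02, I05 and I11 of batch I and J05 of batch J are the 4 highest for 4 of 9 members (Psmb8, Psmb9, Psmb10 and Psme1).

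The PA28 genes moved least among the members. Psme1, the alpha subunit of the cap, ranged from 64.4 to 198 CPM (median 103) in dependent, 68.1 to 119 CPM (median 88.8) in non-dependent and 71.4 to 124 CPM (median 89.9) in naive IP. Psme2, the beta subunit, ranged from 74.9 to 213 CPM (median 146), 80.9 to 147 CPM (median 102) and 98.5 to 150 CPM (median 130). For both genes the lowest dependent library lay under the lowest library of the other 2 groups. Against non-dependent mice, Psme1 rose by log2 0.48 ± 0.12 SE (adjusted p = 0.0189) and Psme2 by 0.49 ± 0.10 SE (adjusted p = 0.00319). The call of Psme1 was lost in limma voom (adjusted p = 0.0543), without batch J (0.0879) and without batch K (0.0588). It was also lost without batch I (log2 0.37, adjusted p = 0.197), without the dependent library I11 (0.0519) and with no batch term (0.262). With the mean log2 level of the microglia markers as a covariate it was lost too (0.0651). Psme2 was not called without batch I (log2 0.42, adjusted p = 0.0573) or with no batch term (0.201).

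The 2 subunits of the peptide transporter had unequal estimates. Tap1 ranged from 3.33 to 92.7 CPM (median 8.49) in dependent, 1.52 to 7.45 CPM (median 4.34) in non-dependent and 1.52 to 5.82 CPM (median 2.62) in naive IP. Tap2 ranged from 9.95 to 59.0 CPM (median 14.9), 7.34 to 18.2 CPM (median 11.1) and 6.61 to 18.3 CPM (median 9.95). Of the dependent libraries, 8 lay above every non-dependent one for Tap1 and 6 for Tap2. Tap1 was 4.05-fold higher than in non-dependent mice (log2 2.02 ± 0.37 SE, adjusted p = 0.00184) and Tap2 1.69-fold higher (log2 0.76 ± 0.18 SE, adjusted p = 0.0177). Without batch I neither was called, with Tap1 at log2 0.88 (adjusted p = 0.387) and Tap2 at 0.33 (adjusted p = 0.550). Tap2 was also not called without batch J (adjusted p = 0.1004), with no batch term (adjusted p = 0.114) or with the microglia covariate (adjusted p = 0.0520).

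Tapbp, the loading bridge, ranged from 28.4 to 182 CPM (median 51.4) in dependent, 26.9 to 54.0 CPM (median 43.7) in non-dependent and 25.1 to 42.5 CPM (median 34.1) in naive IP. Erap1, the trimming peptidase, ranged from 7.12 to 39.9 CPM (median 14.4), 5.37 to 14.4 CPM (median 10.4) and 6.03 to 17.98 CPM (median 10.7). For each gene 8 dependent libraries exceeded the highest non-dependent one, and the other dependent libraries overlapped with it. Tapbp rose by log2 0.72 ± 0.17 SE (adjusted p = 0.0142) and Erap1 by 0.66 ± 0.17 SE (adjusted p = 0.0344) against non-dependent mice. Neither was called with the microglia covariate (adjusted p = 0.0648 for Tapbp and 0.0985 for Erap1) or with no batch term (0.188 and 0.207). Without batch I neither was called, with Tapbp at log2 0.30 (adjusted p = 0.533) and Erap1 at 0.18 (adjusted p = 0.869). The call of Erap1 was lost most often: leaving out I02, I05, I11, J09 or K18 in turn ended it, with adjusted p from 0.0520 to 0.0764, as did leaving out batch J (0.0868).

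Against naive mice, 4 of 9 members were higher in dependent IP (Psmb8, Psmb9, Psmb10 and Tap1), where 2.68% of all genes were called higher and 4.49% in either direction. Psmb9 was higher by log2 2.60 ± 0.53 SE (adjusted p = 0.00211), Psmb8 by 2.12 ± 0.44 SE (adjusted p = 0.00278), Tap1 by 1.73 ± 0.41 SE (adjusted p = 0.00781) and Psmb10 by 0.57 ± 0.17 SE (adjusted p = 0.0360). The other 5 had estimates from log2 0.27 for Psme2 (adjusted p = 0.141) to 0.60 for Tap2 (adjusted p = 0.0686). The number called was 0 without batch J, 2 without batch K, 1 in batches J and K alone, and between 3 and 6 when 1 dependent library was left out. Fewer libraries entered those fits, and the shares of all genes called in them are not given here, so these counts are not read further. The median estimate over the members was log2 0.57 in the fit of all 4 batches and 0.45 without batch J. It was 0.56 without batch K and 0.48 in batches J and K alone. Dependent libraries serve in both comparisons, so the 2 sets of values are not independent.

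Non-dependent and naive mice did not differ in any member by edgeR (0 of 9 called in IP, where 0.428% of all genes were called, and 0 of 9 in input, where 0.12% were). At an unadjusted p under 0.05, 0 members passed in IP and 2 in input, and both limma voom and DESeq2 also called 0 in either fraction. The IP estimates were negative for all 9 members, from log2 -0.69 for Psmb8 (SE 0.47) to -0.16 for Tap2 (SE 0.21). Their sign depended on which mice entered: in batches J and K alone, the only ones that hold both groups, 6 of 9 estimates were positive, and without batch I 5 of 9 were.

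**Figure D2:**
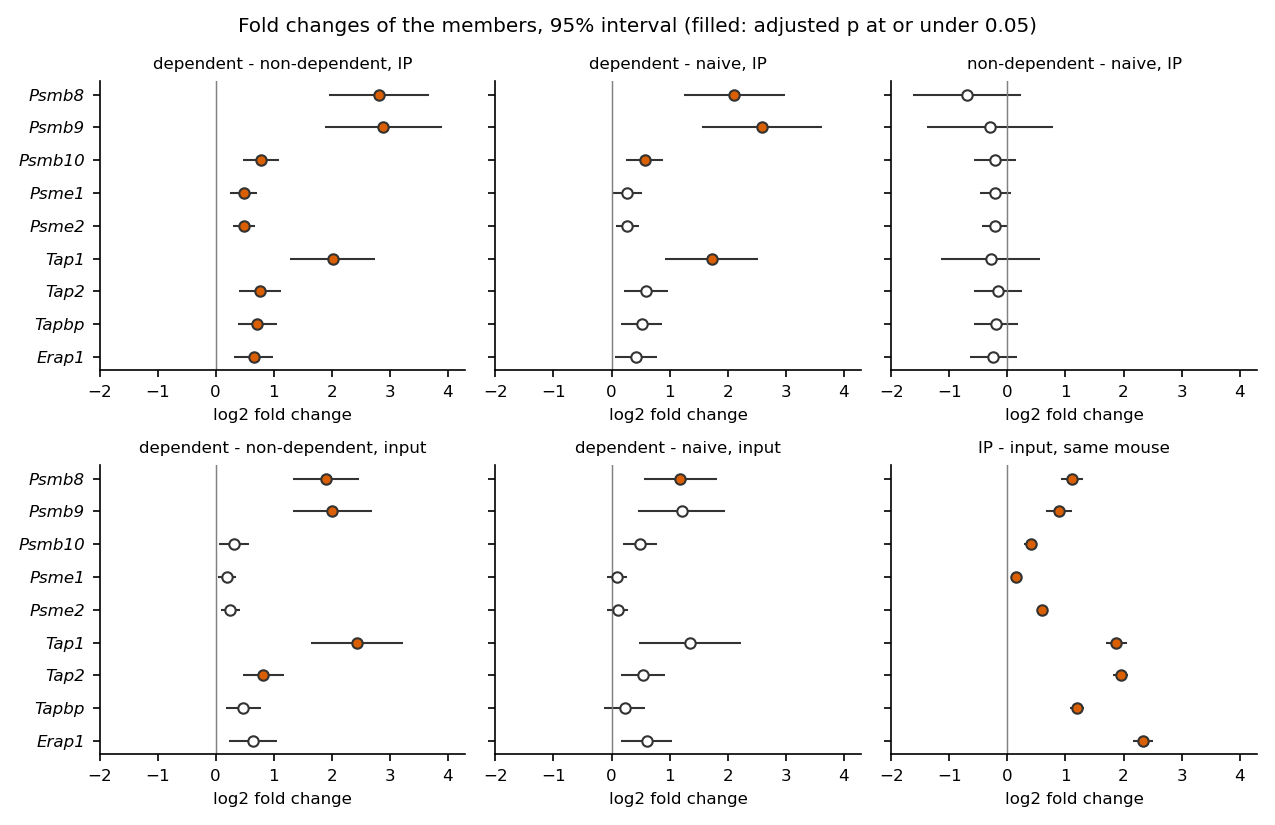
Log2 fold change of each member with its 95% interval in 6 comparisons, from edgeR. Filled points passed an adjusted p of 0.05: 9 members between dependent and non-dependent IP, 4 between dependent and naive IP, 0 between non-dependent and naive IP, 4 and 1 in the input comparisons, and 9 between IP and input.

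Within batches the direction of the catalytic pair recurred. In batch I, all 7 dependent IP libraries had more Psmb8 than any of the 7 non-dependent ones (mean 72.9 against 5.38 CPM), and the same held for the 4 against 3 of batch J (38.1 against 9.03 CPM) and the 2 against 3 of batch K (10.5 against 5.61 CPM). The values within batches are not adjusted for sex. In batch K both dependent mice were male, and the non-dependent IP libraries were 2 of females and 1 of a male, so sex and treatment are partly mixed there. For Psmb9 the ranges were apart in batch I (mean 69.3 against 3.88 CPM) and batch J (45.8 against 8.32 CPM) and overlapped in batch K (8.42 against 7.12 CPM). Members with ranges apart numbered 2 of 9 in batch I (Psmb8 and Psmb9), 3 of 9 in batch J (with Psmb10) and 2 of 9 in batch K (Psmb8 and Psme2), where 0.316%, 2.52% and 7.25% of all tested genes had dependent libraries wholly above non-dependent ones. The mean difference in log2(CPM + 0.5) was positive for 9, 9 and 8 members in batches I, J and K, with medians of 0.99, 0.47 and 0.14. The exception was Tap2 in batch K, at 0.00. Against naive mice 4 of 9 members in batch J, 2 in batch K and 3 in batch L had ranges apart, where 2.79%, 9.18% and 2.5% of all tested genes had, and the medians were 0.53 in batch J, 0.31 in batch K and 0.34 in batch L, with Erap1 in batch L the only negative value (-0.11).

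**Figure D3:**
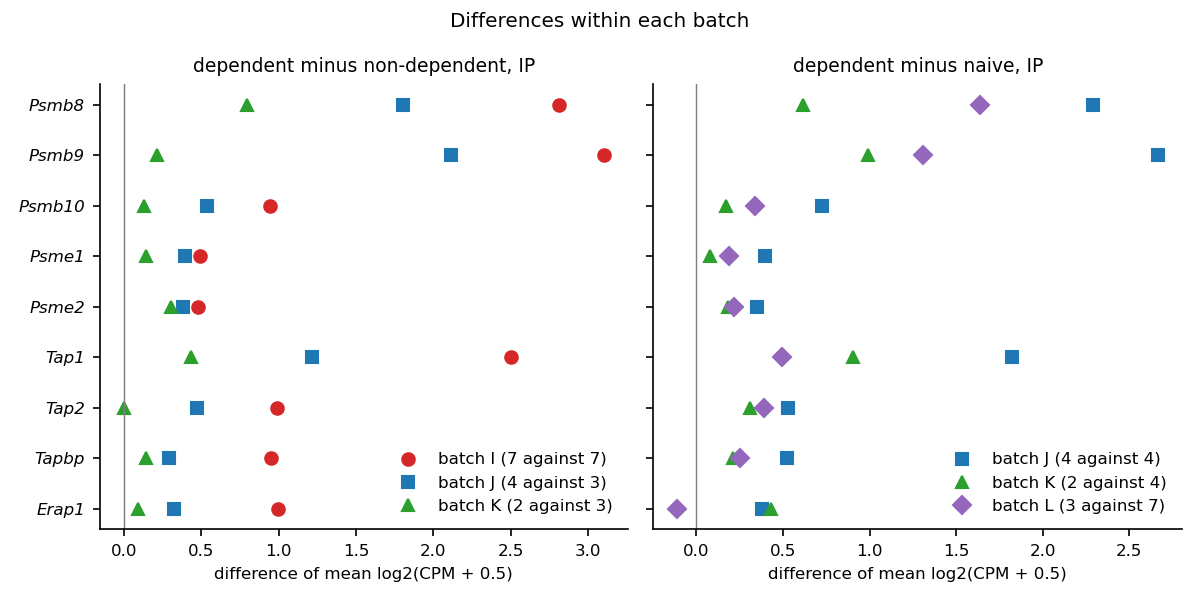
Difference of mean log2(CPM + 0.5) of each member between dependent and non-dependent IP libraries (left) and between dependent and naive IP libraries (right), 1 symbol per batch, with the libraries per group in the key. Batch I has the largest differences from non-dependent mice, with 3.10 for Psmb9, and batch K the smallest, with a median of 0.14.

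The spread among dependent mice was wide. Psmb8 differed 23.3-fold between the lowest and highest dependent IP library, against 2.89-fold among non-dependent and 6.10-fold among naive ones, and Tap1 27.8-fold against 4.91-fold and 3.83-fold. Mice I02, I05 and I11, of both sexes, were the 3 highest of the 7 dependent mice of batch I for 8 of 9 members, Tap2 being the exception. Their Psmb8 levels were 168, 117 and 150 CPM, their Psmb9 levels 113, 151 and 144 CPM and their Tap1 levels 58.2, 82.6 and 92.7 CPM. Within batch J, mouse J05 was the highest dependent mouse for 8 of 9 members, Erap1 being the exception, with 77.6 CPM of Psmb8 and 100 CPM of Psmb9. J05 had 16.6 CPM of Tap1 and 16.4 CPM of Tap2, against 58.2 and 27.6 CPM in I02, the mouse of batch I nearest to it in Psmb9. The non-dependent means of Tap1 and Tap2 were also lower in batch J (3.48 and 9.64 CPM) than in batch I (4.79 and 13.7 CPM). At the other end, mice I09, I15, K21, L26 and L29 had 8.81, 11.5, 7.23, 10.1 and 11.9 CPM of Psmb8. These lay inside the non-dependent range over all batches, whose highest value (12.03 CPM) was in batch J. Within their own batches the highest non-dependent library had 7.45 CPM in batch I and 6.71 CPM in batch K. The highest naive library had 12.9 CPM in batch K and 6.64 CPM in batch L. Mouse G22, alone in batch G, had 5 of 9 members above every control library of batches I to L in IP, as had 3.68% of all tested genes, and 2 of 9 in input, as had 2.55%. The input libraries gave the same order in part: I02, I05 and I11 were the 3 highest of batch I for 6 of 9 members, and J05 the highest of batch J for 6 of 9.

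Pairs of members were compared across the dependent mice by the spread of their log2 ratio. With batch means removed, the SD of log2 Psmb8 over the 16 dependent IP libraries was 1.29 and that of Psmb9 1.44, while the SD of their log2 ratio was 0.39. Psme1 and Psme2 had SDs of 0.46 and 0.38 and a ratio SD of 0.16. Psmb9 and Tap1, which share a promoter region, had a ratio SD of 0.54, against 1.10 for Tap1. Tap1 and Tap2 had a ratio SD of 0.58, little under the 0.62 of Tap2 alone, and that of Psmb8 and Psmb10 (0.76) was above the 0.56 of Psmb10 alone. In both pairs the SDs of the genes were unequal, which by itself widens the ratio. These ratio SDs therefore do not show that the genes varied apart. With the mean of the 8 other members, Pearson's r was 0.963 for Tap1, 0.883 for Tap2 and 0.952 for Psmb10. Pearson's r of a member with the mean of the 8 others ran from 0.735 for Erap1 to 0.978 for Psmb9, and of the counterparts Psmb5, Psmb6 and Psmb7 with the 9 members it was 0.439, 0.327 and 0.230. These are descriptions over libraries that share the contrast between high and low mice.

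By Pearson's r of log2 CPM with batch means removed, the genes outside the list closest to the mean of the members over these 16 libraries, of 15182 compared, were Irgm1 (r = 0.984), Tgtp2 (0.983), Ifitm3 (0.977), Bst2 (0.972), Igtp (0.971), H2-T23 (0.964) and Zbp1 (0.962). Irgm1, Tgtp2 and Igtp encode interferon-inducible GTPases, Ifitm3 and Bst2 antiviral membrane proteins, H2-T23 a class I chain and Zbp1 a nucleic acid sensor. Spearman's rho was between 0.915 and 0.979 for these 7 genes. Without the 2 libraries farthest from the median (I09 and I15) r was between 0.933 and 0.977. Both are low in the members, so the high mice I02, I05, I11 and J05 stayed in. Genes entered with a mean of at least 1 CPM over these libraries. Tgtp2 (0 to 44.5 CPM, median 0.956) and Zbp1 (0 to 11.7 CPM, median 0.479) had medians under that and passed through the high mice.

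Since each immunosubunit takes the place of one standard subunit, the pairs were compared within each library. Psmb5, Psmb6 and Psmb7 were not called in any treatment comparison: between dependent and non-dependent IP their log2 differences were 0.14, 0.04 and 0.06 (adjusted p = 0.512, 0.882 and 0.855). Scaled to the length of the principal transcript, Psmb8 made up 2.74% to 49.5% (median 7.50%) of the counts of Psmb8 and Psmb5 in dependent IP, 1.82% to 4.71% (median 3.11%) in non-dependent and 1.10% to 5.98% (median 2.25%) in naive IP. The share was 49.5%, 41.0% and 47.5% in I02, I05 and I11. Psmb9 made up 0.730% to 20.7% (median 2.22%) of the counts of Psmb9 and Psmb6 in dependent IP, against medians of 0.718% and 0.542% in non-dependent and naive mice. Psmb10 was already 44.2% and 40.6% (medians) of the counts of Psmb10 and Psmb7 in non-dependent and naive IP, and 54.5% in dependent IP (39.2% to 71.0%). The shares depend on the length chosen. With the merged exons of each gene as the length, the medians of Psmb8 were 3.76%, 1.52% and 1.10% in dependent, non-dependent and naive IP, and the highest dependent share was 32.1%. Those of Psmb9 were then 1.93%, 0.623% and 0.470%. Those of Psmb10 were 73.0%, 64.2% and 60.8%, so that it was the larger of its pair by median in every IP group. These are shares of RNA and not of protein.

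The log2 ratio of each pair was tested by a two-sided permutation test (100000 permutations of labels within the batches that hold both groups, Benjamini-Hochberg over 18 tests). Psmb8 to Psmb5 was higher in dependent than in non-dependent IP by 2.21 (13 against 13 libraries, permutation p = 1e-05, the smallest these permutations can give, adjusted p = 0.00018). Psmb9 to Psmb6 was higher by 2.45 (permutation test, adjusted p = 0.00018) and Psmb10 to Psmb7 by 0.69 (permutation test, adjusted p = 0.00228). Between medians in place of means the differences were 1.35, 1.66 and 0.95 (permutation tests, adjusted p = 0.00165, 0.00165 and 0.00778). Against naive IP the differences were 1.72, 1.98 and 0.60 (9 against 15 libraries, permutation tests, adjusted p = 0.00036, 0.00018 and 0.00036). Between non-dependent and naive IP no ratio passed (permutation tests, adjusted p from 0.0700 to 0.458). These differences pool the batches, so where group sizes were unequal they also hold differences in batch level. Sex did not enter the permutation tests. Within batches, the difference of the Psmb8 ratio between dependent and non-dependent IP was 2.93 in batch I, 1.64 in batch J and 0.55 in batch K. That of the Psmb9 ratio was 3.29, 2.12 and 0.15, and that of the Psmb10 ratio 0.93, 0.29 and 0.27. Against naive IP in batches J, K and L, the Psmb8 ratio differed by 2.24, 0.58 and 1.70. The Psmb9 ratio differed there by 2.74, 1.18 and 1.40, and the Psmb10 ratio by 0.68, 0.18 and 0.39.

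**Figure D4:**
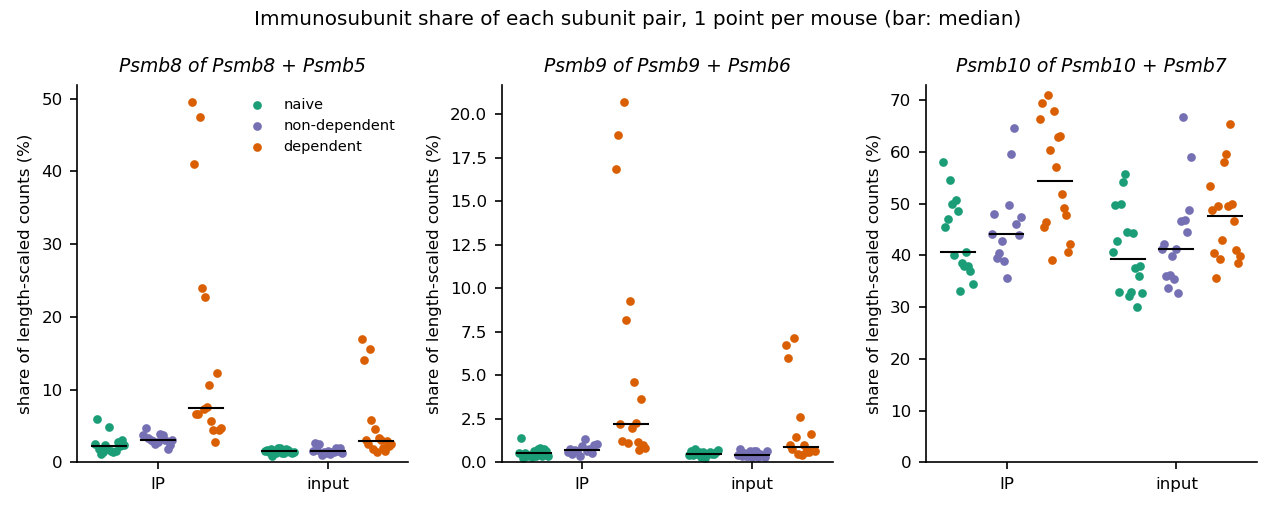
Share of the immunosubunit in the length-scaled counts of each subunit pair (percent), 1 point per mouse of batches I to L, bars at the median, for IP and input. Psmb8 reaches 49.5% in dependent IP and stays at or under 5.98% in the other groups, whereas Psmb10 has medians over 40% in every IP group. Lengths are those of the principal transcript; with merged exons the highest Psmb8 share is 32.1%.

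Per kilobase of principal transcript, the order of the members in naive IP was Psme2 (130 ± 17.5 CPM per kb, SD, n = 15), Psme1 (83.1 ± 12.7), Psmb10 (52.4 ± 10.9), Tapbp (12.02 ± 1.72), Psmb8 (3.71 ± 2.20), Psmb9 (3.39 ± 1.961), Tap2 (3.13 ± 0.892), Erap1 (1.85 ± 0.649) and Tap1 (1.05 ± 0.463). The neighbours Psmb8, Psmb9 and Tap2 differed by less than their SDs. In dependent IP Psmb9 (33.5 ± 38.3 CPM per kb, SD, n = 16) and Psmb8 (28.2 ± 32.6) stood above Tapbp (25.1 ± 17.3), and Tap1 (7.77 ± 9.83) above Tap2 (6.35 ± 4.41) and Erap1 (3.17 ± 1.87), each by less than the SD. By medians the order was the other way: Tapbp (17.7 CPM per kb) stood above Psmb9 (13.8) and Psmb8 (12.2), and Tap2 (4.32) above Tap1 (2.87). Means per kilobase of merged exons also placed Tapbp (20.1) above Psmb8 (13.6) and Psmb9 (12.4), and Tap2 (5.78) above Tap1 (4.19). In naive IP that length placed Tap2 (2.85) above Psmb8 (1.79) and Erap1 (1.44) above Psmb9 (1.25). Psmb6 was the most abundant of the 12 genes in every group and fraction, at 595 ± 94.6 CPM per kb in naive IP.

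IP and input of the same mouse were compared in the 46 mice with both, with the mouse as a block. All 9 members were called higher in IP, where 31.8% of all genes were called higher and 41.3% lower, and the median log2 fold change over all genes tested was -0.16. The trimming and transport genes had the highest estimates: Erap1 by log2 2.33 ± 0.09 SE, Tap2 by 1.95 ± 0.07 and Tap1 by 1.88 ± 0.09 (adjusted p = 7.73e-33, 1.00e-34 and 1.11e-27), followed by Tapbp at 1.198 ± 0.06 (adjusted p = 8.00e-26). Erap1, Tap1, Tap2 and Tapbp had a higher CPM in IP in 46 of 46 mice, as had 8.83% of the genes tested in the IP fit. Mean levels were 13.1 ± 7.48 CPM in IP and 2.99 ± 1.63 in input (SD, n = 46) for Erap1, and 15.1 ± 10.4 and 4.49 ± 3.58 CPM for Tap2. Psmb8 (log2 1.11), Psmb9 (0.88), Psme2 (0.59) and Psmb10 (0.40) were less enriched. These values pool the treatments. By CPM, the mean log2 ratio of IP to input for Psmb9 was 1.05 in dependent, 0.17 in non-dependent and -0.26 in naive mice. For Psmb8 it was 1.18, 0.45 and 0.15. Psme1 was called by log2 0.15 ± 0.04 SE after TMM scaling, but its CPM was higher in IP in only 19 of 46 mice (mean 102 against 103 CPM), so its direction turned with the scaling. Mitochondrial transcripts took 6.85% to 17.9% of the input counts and 0.486% to 2.17% of the IP counts. Of the counterparts, Psmb5 was lower in IP by CPM in 46 of 46 mice (log2 -0.28 ± 0.04 SE, adjusted p = 4.59e-09).

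In input, the transporter and the catalytic pair again differed between dependent and non-dependent mice. Psmb8 ranged from 4.58 to 55.3 CPM (median 8.80) in dependent, 2.61 to 6.72 CPM (median 4.49) in non-dependent and 3.59 to 7.41 CPM (median 4.68) in naive input. Tap1 ranged from 0.714 to 30.8 CPM (median 3.09), 0.0546 to 3.59 CPM (median 1.26) and 0.0607 to 3.004 CPM (median 1.13), the lowest of these resting on 1 count. For Psmb8 11 dependent libraries exceeded all non-dependent ones and for Tap1 5, with the ranges overlapping. In all, 4 of 9 members were called higher (0.325% of all genes were): Tap1 by log2 2.44 ± 0.41 SE (adjusted p = 0.000743), Psmb9 by 2.01 ± 0.35 (adjusted p = 0.00168), Psmb8 by 1.90 ± 0.29 (adjusted p = 0.000241) and Tap2 by 0.83 ± 0.18 (adjusted p = 0.0139). That count was 0 without batch I and 0 in batches J and K alone, and Tap2 was not called without batch J (adjusted p = 0.0567) or with no batch term (0.645). Against naive input 1 of 9 was called (1.29% of all genes were called higher), Psmb8 by log2 1.19 ± 0.32 SE (adjusted p = 0.0367), and the count ran from 0 in limma voom to 4 in DESeq2. In bulk input, a different number of cells of a type and a different amount of RNA per cell cannot be told apart.

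The treatment difference was larger in IP than in input for Psmb9, and for Psmb8 in the comparison with naive mice. Psmb9 differed between fractions by log2 1.03 ± 0.22 SE (edgeR with the mouse as a block, adjusted p = 0.0281) in the comparison with non-dependent mice, the 1 member of 9 called where 0.0835% of all genes were. Psmb8 gave 0.90 ± 0.21 (adjusted p = 0.0686), and passed in limma voom with the block (0.94, adjusted p = 0.0418). In the comparison with naive mice both were called, among 0.155% of all genes called in that direction: Psmb9 by 1.36 ± 0.23 SE (adjusted p = 0.00167) and Psmb8 by 0.93 ± 0.22 SE (adjusted p = 0.0398). Within mice, Psmb8 was higher in IP than in input in 16 of 16 dependent, 10 of 13 non-dependent and 10 of 15 naive mice, and Psmb9 in 15 of 16, 9 of 13 and 6 of 15. Tap1 and Tap2 showed no such difference at this precision: Tap1 gave -0.42 ± 0.29 SE (adjusted p = 0.825) and Tap2 -0.02 ± 0.18 SE (adjusted p = 1) against non-dependent mice.

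**Figure D5:**
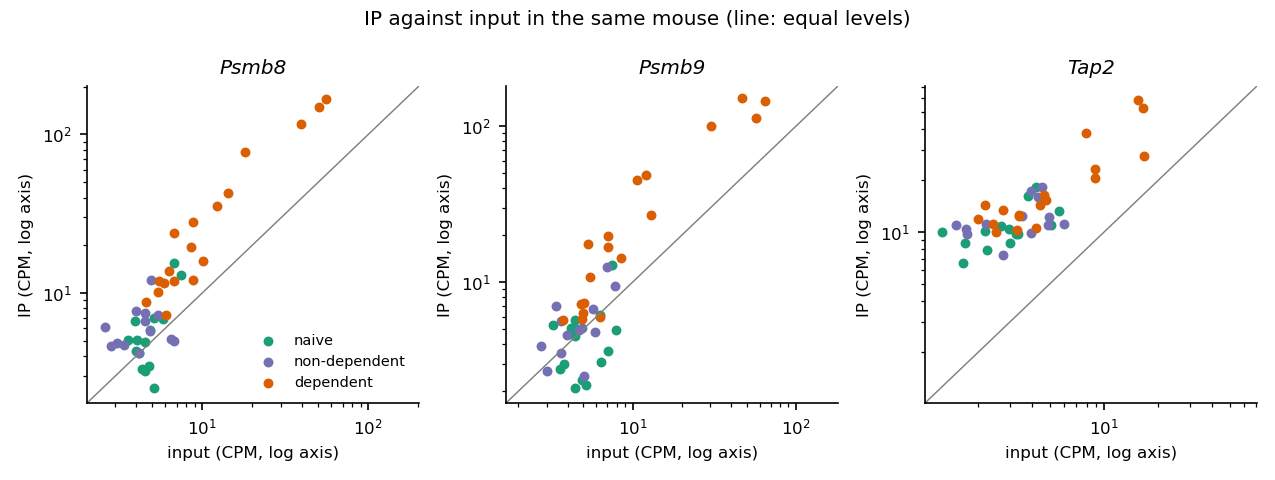
IP level against input level of Psmb8, Psmb9 and Tap2 in the same mouse (CPM, log axes, 46 mice, colour for treatment, line at equal levels). All 16 dependent mice of batches I to L lie above the line for Psmb8 and all 46 mice for Tap2, while only 6 of 15 naive mice do for Psmb9.

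The sexes were fitted together, as the mean of a female and a male difference. The difference between the sexes of the dependent against non-dependent fold change in IP was not called for any member (0 of 9, edgeR; 0 at an unadjusted p under 0.05; 0 in limma voom; 0 of all genes). Its 9 estimates were positive, from log2 0.12 to 0.97, meaning larger in females, and with no batch term 8 of 9 were. For Psmb8 the female estimate was log2 3.21 ± 0.57 SE and the male estimate 2.41 ± 0.64 SE, and for Tap1 they were 2.501 ± 0.49 and 1.53 ± 0.54. The non-dependent IP libraries were 8 of females and 5 of males.

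Genes that act beside the members in the same pathway were read from lists of known function, and the counts called higher stand beside the 1.08% of all genes called higher between dependent and non-dependent IP. Of the 10 class I chains, 9 were higher in dependent than in non-dependent IP (median log2 1.82): H2-Q4 by 3.60 ± 0.61 SE (adjusted p = 0.000631), H2-T23 by 2.64 ± 0.44 (adjusted p = 0.000738) and H2-D1 by 1.92 ± 0.32 (adjusted p = 0.000710). H2-D1 had a median of 226 CPM in dependent (75.2 to 1369), 97.6 CPM in non-dependent (36.0 to 160) and 73.1 CPM in naive IP (30.8 to 108). The H2 genes are close copies of each other, so their counts are uncertain one by one. Of the 5 chaperones and editors of loading, 4 rose: Calr by log2 0.83 ± 0.13 SE (adjusted p = 0.000206), Pdia3 by 0.54 ± 0.12 (adjusted p = 0.00569), Canx by 0.27 ± 0.06 (adjusted p = 0.00650), and Tapbpl. Calr and Canx are lectin chaperones and Pdia3 a disulfide isomerase, all with many other clients. In input 0 of these 5 were called, and the difference was larger in IP for Calr (by log2 0.74 ± 0.11 SE, adjusted p = 0.000153) and Pdia3 (by 0.55 ± 0.11 SE, adjusted p = 0.0152).

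Few other proteasome genes were called. None of the 14 standard core genes was called (median log2 0.09), with Psma7 at 0.17 ± 0.05 SE (adjusted p = 0.117), Psma3 at 0.19 ± 0.07 (adjusted p = 0.203) and Psma5 at 0.15 ± 0.07 (adjusted p = 0.367). Of 18 genes of the 19S regulator, 1 was called, Psmd7 at 0.19 ± 0.05 (adjusted p = 0.0497), with Adrm1 at 0.16 and Psmd3 at -0.14 not called. None of 8 other activators and assembly factors was called (Psmf1 0.22, Psme4 0.39 and Pomp 0.18), nor any of 8 other peptidases (Blmh -0.20, Thop1 -0.34 and Nrdc 0.19). Of 13 transcriptional regulators of the pathway, 4 rose, among them Irf1 by log2 1.57 ± 0.29 SE (adjusted p = 0.00175), Irf9 by 1.13 ± 0.24 (adjusted p = 0.00570) and Irf8 by 1.21 ± 0.30 (adjusted p = 0.0214). Irf1 is a direct activator of immunoproteasome genes, and Irf9 carries the interferon signal. Irf1 ranged from 2.77 to 62.2 CPM (median 12.5) in dependent and 3.13 to 8.31 CPM (median 4.90) in non-dependent IP.

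Some markers of immune cells were also higher in dependent IP, where 1.08% of all genes were. The 14 microglia markers summed to 224 to 819 CPM (median 303) in dependent, 247 to 313 CPM (median 279) in non-dependent and 232 to 308 CPM (median 278) in naive IP, and 13 of the 14 were lower in IP than in input. The sums were 819, 464 and 477 CPM in I02, I05 and I11 and 664 CPM in J05. Of these markers 3 were called higher in dependent than in non-dependent IP (C1qa, C1qb and C1qc), and none was at 0 in all libraries of a group. With the mean log2 CPM of these markers as a covariate in edgeR, 5 of 9 members were called (Psmb8, Psmb9, Psmb10, Psme2 and Tap1). The share of all genes called in that fit is not given here, so the count is not read further. The median estimate over the members was log2 0.59 with the covariate and 0.76 without it. With the covariate Psmb8 was higher by log2 2.20 (adjusted p = 0.000259). The 8 monocyte and granulocyte markers summed to 4.06 to 58.6 CPM in dependent and 5.90 to 20.5 CPM in non-dependent IP, with Lyz2 called higher, and the sum was highest in I02. The 14 T and NK cell markers summed to 15.5 to 43.3, 24.2 to 49.1 and 17.03 to 43.4 CPM in dependent, non-dependent and naive IP. Of these, Cd3e, Cd3d and Gzmb were at 0 in all non-dependent and naive IP libraries, and Gzma and Ifng in all dependent ones. The 6 B and dendritic cell markers summed to at most 3.03 CPM in any IP library. Endothelial sums overlapped between the groups (41.1 to 178, 52.8 to 120 and 62.3 to 114 CPM), as did oligodendrocyte sums (1021 to 2362, 1126 to 2644 and 1196 to 2301 CPM). The covariate cannot tell RNA of microglia in the IP from RNA of astrocytes. The part of these cells in the members' differences was not tested otherwise.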

How the data were processed

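Translating-ribosome (IP) and whole-tissue (input) RNA of mouse nucleus accumbens was read from the raw counts per gene deposited by the authors. Per the submitters' processing notes, tools were FastQC 0.11.9, Trimmomatic 0.39 and STAR 2.7.10b with GRCm38. The counting program, annotation and strand setting are not given in the sources used here. Replicates are mice by their labels.

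Treatments were compared in batches I to L with edgeR 4.0.16 (R 4.3.3): TMM scaling, filterByExpr (minimum count 10), robust quasi-likelihood fit, a mean per treatment and sex plus batch, and Benjamini-Hochberg adjustment over all genes. IP and input of the same animal were fitted with the mouse as a block; the pairing comes from the labels. DESeq2 1.42.0, limma 3.58.1 (voom), other filters, batch sets, a microglia covariate and left-out dependent libraries were the alternatives. The edgeR fits of dependent against non-dependent IP and of IP against input were also run on simulated data. In the simulated treatment data all dependent libraries had the same fold change per gene, with no batch effect, and no result here rests on these runs. Subunit ratios, log2 with 0.5 added, were permuted within the batches that hold both groups, a limit chosen after seeing the data. CPM scales counts to the same library total. Lengths and coordinates are from GENCODE M21. The 3 counts that a level of 0 allows equal 0.111 to 0.210 CPM in IP, for counting error only.

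The members and lists were chosen with earlier results of these data known. Named pathway genes are the 3 with the lowest p between dependent and non-dependent IP in each list; genes most like the members are the 8 with the highest r. Tapbpl, Irf8, Lyz2 and the C1q genes were named after their values were seen, to complete a count. One gene that these rules name is not reported here.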

Additional observations from a re-analysis of the deposited data

Results flagged for a closer look

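The treatment difference in fold change between IP and input passed the test of the difference itself in 3 cases. Psmb9 was higher by log2 1.03 when dependent mice were set against non-dependent ones (edgeR with the mouse as a block, adjusted p = 0.0281). Against naive mice Psmb9 was higher by 1.36 (adjusted p = 0.00167) and Psmb8 by 0.93 (adjusted p = 0.0398).

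Mouse G22, the dependent female that is alone in batch G, entered no treatment comparison, and 7 of its values lay above every control library of batches I to L, as did 3.68% of all tested genes in IP and 2.55% in input. In IP these were Psmb8 at 19.5 CPM (highest of 28 controls 15.4), Psmb9 at 16.8 CPM (12.8), Psmb10 at 109 CPM (96.8), Psme1 at 132 CPM (124) and Psme2 at 171 CPM (150). In input they were Psmb8 at 8.51 CPM (highest of 31 controls 7.41) and Psme1 at 149 CPM (140). Its Tap1, Tap2, Tapbp and Erap1 levels lay within the control range in both fractions. Batch and treatment cannot be told apart for this mouse, since batch G holds no control.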

How the results depend on the processing

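Between dependent and non-dependent IP, the 9 members called became 3 with no batch term over all 6 batches, 5 with the microglia covariate, 0 in batches J and K only and 0 without batch I. In those last fits 0 and 3 genes of all tested were called, so they hold few calls of any kind. The median estimate over the members was log2 0.42 in both, against 0.76 in the fit of all 4 batches. Leaving out 1 dependent library gave 7 to 9. Against naive IP the 4 members became 2 in limma voom, 8 with no count filter, 1 in batches J and K only, 0 without batch J and 2 without batch K, 3 to 6 under the other 5 alternatives (DESeq2 5, no batch term 6, microglia covariate 3, without batch I 5, without batch L 3), and 3 to 6 without 1 dependent library. Non-dependent against naive IP gave 1 in place of 0 with no count filter. In input, dependent against non-dependent gave 0 in place of 4 in batches J and K only and without batch I, and 3 with no batch term and without batch J. Dependent against naive input gave 4 in place of 1 in DESeq2 and with no batch term, 2 with the microglia covariate, and 0 in limma voom, with no count filter, in batches J and K only, without batch J and without batch L. Between dependent and non-dependent IP the unfiltered fit gave a far smaller adjusted p for Psmb8 (1.81e-97 against 0.000345), and nothing is read from the unfiltered treatment fits. For IP against input, the fit with no replicate block also called 9 members, and the pairing changed no call. The difference between fractions against non-dependent mice gave 2 members in place of 1 in limma voom with the replicate block. Among ratios, Psmb9 to Psmb6 between non-dependent and naive IP passed over all libraries of batches I to L (0.50, permutation test, adjusted p = 0.0405), an alternative chosen after seeing the data. With medians, Psmb9 to Psmb6 in input no longer passed against naive mice (0.32, permutation test, adjusted p = 0.104), and Psmb10 to Psmb7 in input passed against non-dependent mice (0.49, permutation test, adjusted p = 0.0152). Differences of medians between non-dependent and naive mice turned sign for Psmb8 to Psmb5 in input (-0.029) and Psmb10 to Psmb7 in IP (-0.0398). Of 927 member values recomputed, 807 kept direction and call, 70 lost the call, 23 gained it and 27 turned sign, none of them called. Of these 18 were non-dependent against naive IP: with no batch term Psmb9 (0.26), Psmb10 (0.027), Tap1 (0.43), Tap2 (0.11) and Tapbp (0.23); in batches J and K only Psmb9 (0.57), Psmb10 (0.018), Tap1 (0.58), Tap2 (0.11), Tapbp (0.071) and Erap1 (0.11); without batch I Psmb9 (0.45), Tap1 (0.40), Tap2 (0.10), Tapbp (0.051) and Erap1 (0.037); without batch L Psmb9 (0.081) and Tap1 (0.16). In input 6 did: with no batch term Tap2 (0.25), Tapbp (0.064) and Erap1 (0.19), in batches J and K only Tapbp (0.041), and for Erap1 with the microglia covariate (0.0021) and without batch J (0.196). The other 3 were Tapbp in dependent against naive input without batch J (-0.035), the sex difference of Erap1 with no batch term (-0.025), and the difference between fractions of Tap2 against naive mice with no count filter (0.0059). Where a smaller set of batches changed a count, fewer libraries were fitted, and the cause of the change was not tested. Except where stated, the share of all genes called under an alternative is not given, so those counts are not read as results about the members. Tap1 in input is limited by depth, with 1 count in 2 libraries.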

Other observations

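Mouse C17, the dependent female alone in batch C, had 11.95 CPM of Psmb8 and 7.22 CPM of Psmb9 in IP and no member above the highest control library in either fraction. Mouse J05 had the highest excess of Psmb8 in IP over input among the dependent mice, by log2 2.06, against 1.60, 1.55 and 1.56 in I02, I05 and I11.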
